A study of Homo sapiens with 11 samples.

Results

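In MDA-MB-231 cells, 1556 of the 30687 mH2A1.1 peaks were 1 bin of 3000 bp wide, overlapped no total mH2A1 peak and lay within 1 kb of the transcription start site (TSS) of a protein-coding gene. They are called single-bin mH2A1.1-only promoter peaks here, and the 1835 genes whose TSS lies there are called their genes. The peaks were chosen by the peak calls of both ChIP-seq lists, by width and by position, so these values describe the set and support nothing about it. They made up 10.3% of the 15042 single-bin mH2A1.1 peaks without a total mH2A1 peak, and their genes were 9.16% of the 20033 protein-coding genes of the annotation. For comparison, 317 single-bin mH2A1.1 peaks at promoters were shared with total mH2A1 (346 genes), and 950 wider mH2A1.1 peaks at promoters had no total mH2A1 peak (1266 genes).

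MacroH2A1 is a variant of histone H2A with a large globular domain outside the nucleosome core, and its gene yields the splice isoforms mH2A1.1 and mH2A1.2. The domain of mH2A1.1 binds ADP-ribose, the product of PARP enzymes, and that of mH2A1.2 does not. Histone variants of this family are known from broad repressed domains, and mH2A1.1 is also studied at promoters of transcribed genes. A promoter is the stretch around the TSS where RNA polymerase II assembles, and many human promoters are rich in the dinucleotide CpG.

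MDA-MB-231 is an established human triple-negative breast cancer line. ChIP-seq was done on untreated cells with 1 library per antibody, a custom polyclonal antibody against mH2A1.1 and a commercial antibody (Ab37264) against total mH2A1, so peak calls have no replicate. An mH2A1.1 peak without a total mH2A1 peak is therefore a difference between 2 calls on single libraries. Since total mH2A1 includes mH2A1.1, such a peak is not a measurement of chromatin that lacks mH2A1. The study reports a lower affinity of the commercial antibody for tagged mH2A1.1, and fewer uniquely mapped reads in the total mH2A1 library. Its own peak analyses used only peaks common to both antibodies, so the peaks described here were not among them. RNA-seq compared 2 WT libraries, from cells given the transfection reagent with no siRNA, with 2 mH2A1.1 knockdown (KD) libraries, from cells given siRNA against mH2A1.1 at 11 nM for 3 days. The control thus carried no siRNA of another sequence, and the labels do not say whether replicates were separate cultures, in which case p-values may measure only technical spread. Gene counts summed to 9794674 and 7856892 in WT and 5584962 and 2309549 in KD. Chromosomes 22 and X had 0 counts in KD replicate 2, and chromosome 21 had 30, where KD replicate 1 had 44311 on chromosome 21, so genes of these chromosomes were left out of the test between WT and KD. Markers of the line are given in CPM (counts scaled to a common library size, here before TMM). The keratin KRT8 had 481 to 1250, VIM 2247 to 4330 and E-cadherin (CDH1) 0.358 to 2.42. The hormone receptor genes ESR1 and PGR had 0 counts in all 4 libraries. In contrast, the receptor gene ERBB2 had 77.6 to 117 CPM, and the fibroblast marker COL1A1 had 8.40 to 30.3 CPM. MACROH2A1, whose gene count covers both isoforms, had 385 and 394 CPM in WT and 274 and 300 CPM in KD, and the KD values were the lower ones without overlap (CPM after TMM scaling, edgeR quasi-likelihood test, log2 fold change -0.44, standard error 0.17, Benjamini-Hochberg adjusted p = 0.205). Its own promoter carried a wider shared peak and is not part of the set.

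The bases before the TSS of 7 of the genes are shown because their expression is followed below, 4 of them from a list of genes displayed or named in the study and 3 among the genes with the smallest DESeq2 adjusted p, 2 lower and 1 higher in KD, chosen after their values were seen. Each stretch of 200 bases ends at the base before the TSS, was read from GRCh38, overlaps no annotated exon and lies inside the peak. Capitals mark motif letters found on either strand, which were searched as CCAAT for the CCAAT box, GGGCGG for the GC box, CCGGAAG for ETS factors, GCGCATGCG for NRF1, TGACGTCA for the CRE, TATAAA for the TATA box, AAGATGGCG for YY1, TCTCGCGA for ZBTB33 and TGANTCA for AP-1, and in these stretches they are CCAAT boxes and GC boxes.
ARRDC3, chr5:91383318-91383517, minus strand: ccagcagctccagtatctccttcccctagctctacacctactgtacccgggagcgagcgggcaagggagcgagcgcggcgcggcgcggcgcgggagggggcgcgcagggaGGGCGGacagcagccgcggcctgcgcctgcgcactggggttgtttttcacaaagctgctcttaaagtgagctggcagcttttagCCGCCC
FBXL4, chr6:98948007-98948206, minus strand: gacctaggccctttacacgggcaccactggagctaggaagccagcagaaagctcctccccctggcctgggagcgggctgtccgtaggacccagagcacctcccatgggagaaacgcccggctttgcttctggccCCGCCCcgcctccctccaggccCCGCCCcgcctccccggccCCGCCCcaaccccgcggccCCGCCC
STK38L, chr12:27243768-27243967, plus strand: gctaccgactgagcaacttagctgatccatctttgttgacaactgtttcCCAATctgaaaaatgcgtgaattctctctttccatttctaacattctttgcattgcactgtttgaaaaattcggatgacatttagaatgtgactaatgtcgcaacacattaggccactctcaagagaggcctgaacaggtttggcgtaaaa
MMP14, chr14:22836360-22836559, plus strand: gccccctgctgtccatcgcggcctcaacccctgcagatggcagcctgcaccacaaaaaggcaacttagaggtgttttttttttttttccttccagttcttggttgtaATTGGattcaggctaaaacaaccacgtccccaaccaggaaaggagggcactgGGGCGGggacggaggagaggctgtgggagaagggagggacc
FAM3C, chr7:121396365-121396564, minus strand: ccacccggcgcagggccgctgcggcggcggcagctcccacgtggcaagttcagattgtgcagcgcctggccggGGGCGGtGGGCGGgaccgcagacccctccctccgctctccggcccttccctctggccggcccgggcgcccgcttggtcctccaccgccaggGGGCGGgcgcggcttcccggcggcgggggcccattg
ZNF367, chr9:96418371-96418570, minus strand: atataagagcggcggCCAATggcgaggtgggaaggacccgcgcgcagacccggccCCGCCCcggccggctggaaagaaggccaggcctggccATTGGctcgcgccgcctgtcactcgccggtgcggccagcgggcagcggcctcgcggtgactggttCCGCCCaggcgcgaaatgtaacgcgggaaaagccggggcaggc
AKR1B1, chr7:134459285-134459484, minus strand: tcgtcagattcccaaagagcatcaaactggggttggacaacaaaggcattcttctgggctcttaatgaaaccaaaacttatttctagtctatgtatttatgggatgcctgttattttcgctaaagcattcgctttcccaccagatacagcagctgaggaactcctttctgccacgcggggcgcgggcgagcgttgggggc
FBXL4, with 73.5% G or C, held 4 GC boxes, and FAM3C, with 79.5%, held 3. ZNF367 held 2 CCAAT boxes and 2 GC boxes. STK38L, with 40.5% G or C, had a CCAAT box and no other motif, and AKR1B1, with 49.0%, had none of the letters searched. GTF2H3 and RBL1, of the same list, have annotated exons right before the TSS and are not shown.

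The bins lay on the TSS more often than beside it. The TSS fell inside the bin for 1449 of the 1835 genes (79.0%), where 3000 of the 5000 positions that the rule admits are inside. The bin centre lay at a median of 72 bp downstream of the TSS, with quartiles of -792 and 930 bp, and downstream for 52.2% of the genes. At the 346 genes of the shared single-bin peaks the TSS was inside in 73.4%, and the median absolute distance from the bin centre was 921 bp against 853 bp. Because the grid of the lists has steps of 3000 bp, positions are known no better than that. The TSS farthest from its bin was that of C11orf24, 1000 bp away on chromosome 11, and the nearest TSS left out was that of PAX3, 1002 bp from its bin on chromosome 2. On width, the next step of the grid, 6000 bp, held 242 mH2A1.1-only promoter peaks. On overlap, 149 of the 1556 peaks directly touched a total mH2A1 peak without sharing a base.

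**Figure D1:**
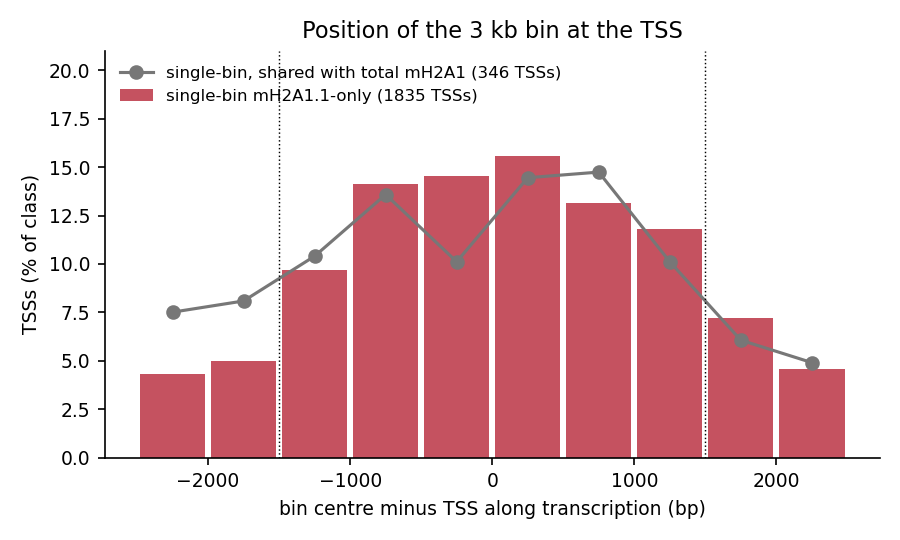
Distance from the TSS to the centre of the 3 kb bin along the direction of transcription (x axis, bp) against the percentage of TSSs in each 500 bp step (y axis), for the 1835 genes of single-bin mH2A1.1-only peaks (bars) and the 346 genes of shared single-bin peaks (points and line). Between the dotted lines the TSS is inside the bin, which holds for 79.0% and 73.4% of the TSSs.

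Some peaks lay at promoters of opposite strands. Of the peaks, 214 (13.8%) lay at TSSs of protein-coding genes on both strands, against 20 of 317 (6.31%) of the shared single-bin peaks, and 385 (24.7%) lay at the start of an lncRNA gene. With gene starts of all kinds counted, 599 peaks (38.5%) had starts on both strands. In 198 of the 214 peaks exactly 2 genes met, 118 of them running away from each other, and the median distance between the 2 TSSs was 220.5 bp. RNA of both genes was detected in WT in 151 of the 195 pairs with counts, of 1 gene in 41 and of neither in 3, where detected means at least 1 CPM in both WT libraries. Genes that share a bin are not independent observations.

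The genes of these peaks were longer at the median than protein-coding genes in all. The nearest other mH2A1.1 peak was never closer than 9000 bp, at a median gap of 21000 bp. The nearest total mH2A1 peak was also at a median of 21000 bp, with 466 peaks (29.9%) having one within 9 kb. The 13486 single-bin mH2A1.1-only peaks away from promoters had the same lowest gap of 9000 bp and the same medians of 21000 bp. The genes of the promoter set spanned a median of 43.0 kb, against 33.2 kb for shared single-bin peaks and 23.2 kb for wider mH2A1.1-only peaks. Genes without a promoter peak spanned 32.1 kb and all protein-coding genes 27.5 kb. A further mH2A1.1 peak was present in 763 genes of the set (41.6%) and a total mH2A1 peak in 555 (30.2%). In 927 (50.5%) there was no other peak of either list. By chromosome, the share of protein-coding genes with such a peak was highest on chromosomes 13 (13.9%), 2 (13.6%) and 18 (13.2%) and lowest, apart from Y, on 17 (4.81%), 11 (5.77%) and 19 (5.89%).

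The bins were richer in G and C and in CpG than the other single-bin mH2A1.1-only peaks. The median G and C content was 50.9% (quartiles 47.1% and 55.2%), against 44.5% in the 13486 single-bin mH2A1.1-only peaks away from promoters, 52.8% in the shared single-bin promoter peaks and 48.1% in the grid bins at the TSS of genes without a peak. The CpG ratio, the number of CpG over that foreseen from the C and G content, had a median of 0.585 in the bins, 0.227 away from promoters, 0.510 in shared single-bin peaks and 0.497 at genes without a peak. Within 1 kb of the TSS the ratio had a median of 0.705 at the genes of these peaks against 0.613 at all protein-coding genes, and it was over 0.6 at 74.6% of them against 52.1%. At wider mH2A1.1-only promoters it was over 0.6 at 66.5% and at shared wide ones at 48.7%. In the RefSeq promoter sequences of GRCh38, from 250 bases before to 50 after the start and found by symbol for 1480 of the genes, a GC box was present in 67.8% against 59.3% of the 15367 protein-coding promoters and 52.2% of those without a peak. The ETS letters were in 19.2% against 14.4% of all promoters, the NRF1 letters in 4.12% against 2.73% and the YY1 letters in 4.39% against 2.79%. The TATA letters were in 4.80% against 9.62%, the AP-1 letters in 4.19% against 5.75% and CCAAT in 37.6% against 36.6%. Promoters of wider mH2A1.1-only peaks had similar shares, with 69.8% for the GC box, 20.5% for ETS and 6.91% for TATA. The matches are letters in a window and were not tested as binding sites.

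Genes with these peaks were mostly transcribed in WT cells. Of the 1758 with counts, 1458 (82.9%, 95% Clopper-Pearson interval 81.1% to 84.7%) were detected in WT, against 62.8% of the 18108 protein-coding genes with counts, 57.9% without a promoter peak and 45.5% with only a total mH2A1 peak. Shared single-bin peaks were at detected genes in 64.1% (58.6% to 69.3%) and wider shared peaks in 63.9%, whereas wider mH2A1.1-only peaks were at detected genes in 83.5% (81.3% to 85.6%). Among the mH2A1.1 peaks, the 2 classes without a total mH2A1 peak thus had the higher shares at either width, a difference that was not tested. Intervals cover counting error only, and genes are not independent replicates. The median WT level was 5.35 CPM per kb of exon (quartiles 1.17 and 13.7), with 5.37 and 5.27 in replicates 1 and 2, against 2.04 over all genes, 2.41 at shared single-bin peaks, 5.66 at wider mH2A1.1-only peaks and 1.31 without a peak. Among detected genes alone the medians were closer, 7.54 against 6.91 over all genes. The peaks were spread over a wide range of levels. They were at 3.58% of genes with 0 counts in WT, and, with the other genes cut into 5 groups of equal size by level, at 6.11% of the lowest group and at 10.8%, 13.7%, 14.3% and 12.9% of the following ones. Of their genes 1210 (68.8%) were above the median of all genes and 236 (13.4%) among the 10% highest, while 150 (8.53%) had 0 counts in both WT libraries. Where the TSS was inside the bin 85.3% of the genes were detected, and where it was beside the bin 73.9%.

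**Figure D2:**
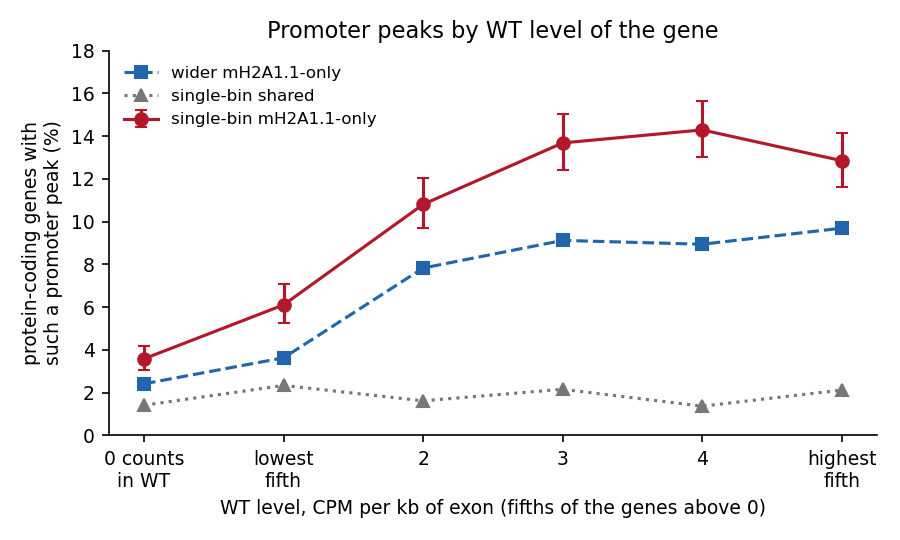
Percentage of protein-coding genes with a promoter peak of each class (y axis) among genes with 0 counts in WT and in 5 groups of equal size by WT level of the other genes (x axis, CPM per kb of exon, mean of 2 libraries), for single-bin mH2A1.1-only (circles, with 95% Clopper-Pearson intervals), wider mH2A1.1-only (squares) and shared single-bin peaks (triangles). The first class runs from 3.58% at 0 counts to 14.3% in group 4, and the shared single-bin class stays between 1.36% and 2.33%.

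The highest levels per kb of exon were those of H2BC12, VIM, H2AC12, RPL36AL and H2BC17. VIM, the intermediate filament of mesenchymal cells, had 434 and 469 CPM per kb in WT, and its bin lay inside the gene, with a centre 2259 bp downstream of the TSS. H2BC12 and H2AC12, core histone genes of the cluster on chromosome 6, had 763 and 299.7 CPM per kb on average and share 1 bin, from 27144001 to 27147000. RPL36AL, a ribosomal protein gene, had 258. Histone genes have near-identical copies, and ribosomal protein genes have pseudogenes, so their counts are less certain than others.

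By function, genes with such a peak were counted in lists of related genes, and the counts are given without a test between lists. Aminoacyl-tRNA synthetases, which charge tRNAs with amino acids, had the peak at 9 of 35 genes (25.7%, interval 12.5% to 43.3%). Genes of homologous recombination and the Fanconi anemia pathway, which repair double-strand breaks and crosslinks, had it at 11 of 43 (25.6%, 13.5% to 41.2%), among them XRCC2, DNA2, RMI1, BRIP1 and FANCA. Mitochondrial ribosomal protein genes had it at 17 of 83 (20.5%, 12.4% to 30.8%), and Mediator, the complex between activators and polymerase II, at 7 of 33 (21.2%, 8.98% to 38.9%). ZNF genes had it at 78 of 509 (15.3%, 12.3% to 18.8%), in 75 bins. Replication-dependent histone genes had it at 15 of 69, but these 15 genes lie in only 8 bins. The intervals of aminoacyl-tRNA synthetases, homologous recombination, mitochondrial ribosomal proteins, histones, ZNF and F-box and Kelch genes (17 of 109) lay above the 9.16% of all protein-coding genes. In contrast, the peak was at 0 of 39 HOX genes (interval up to 9.03%), of which 21 had a shared mH2A1.1 peak, at 0 of 51 clustered protocadherins and at 4 of 415 olfactory receptor genes (0.964%). Keratins had it at 1 of 55, KRT5. DNA replication genes had it at 2 of 49, CDC6 and ORC3, and E2F, RB and G1 regulators at 2 of 36, RBL1 and LIN9. Proteasome subunits had it at 4 of 48 (8.33%), oxidative phosphorylation genes at 8 of 91 (8.79%) and ubiquitin-specific proteases and E2 enzymes at 8 of 93 (8.60%), all near the share of all genes. AP-1 and immediate early genes had it at 1 of 32, JUN, where 18 had a shared peak. The lists are unequal in size and in WT level, and no test compared them. Over all protein-coding genes with counts, the peak was at 3.58% of those with 0 counts in WT. In the groups of highest WT level it was at 13.7%, 14.3% and 12.9%. The list intervals named above as lying over 9.16% all include 14.3%. The part of WT level in these counts was not tested.

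**Figure D3:**
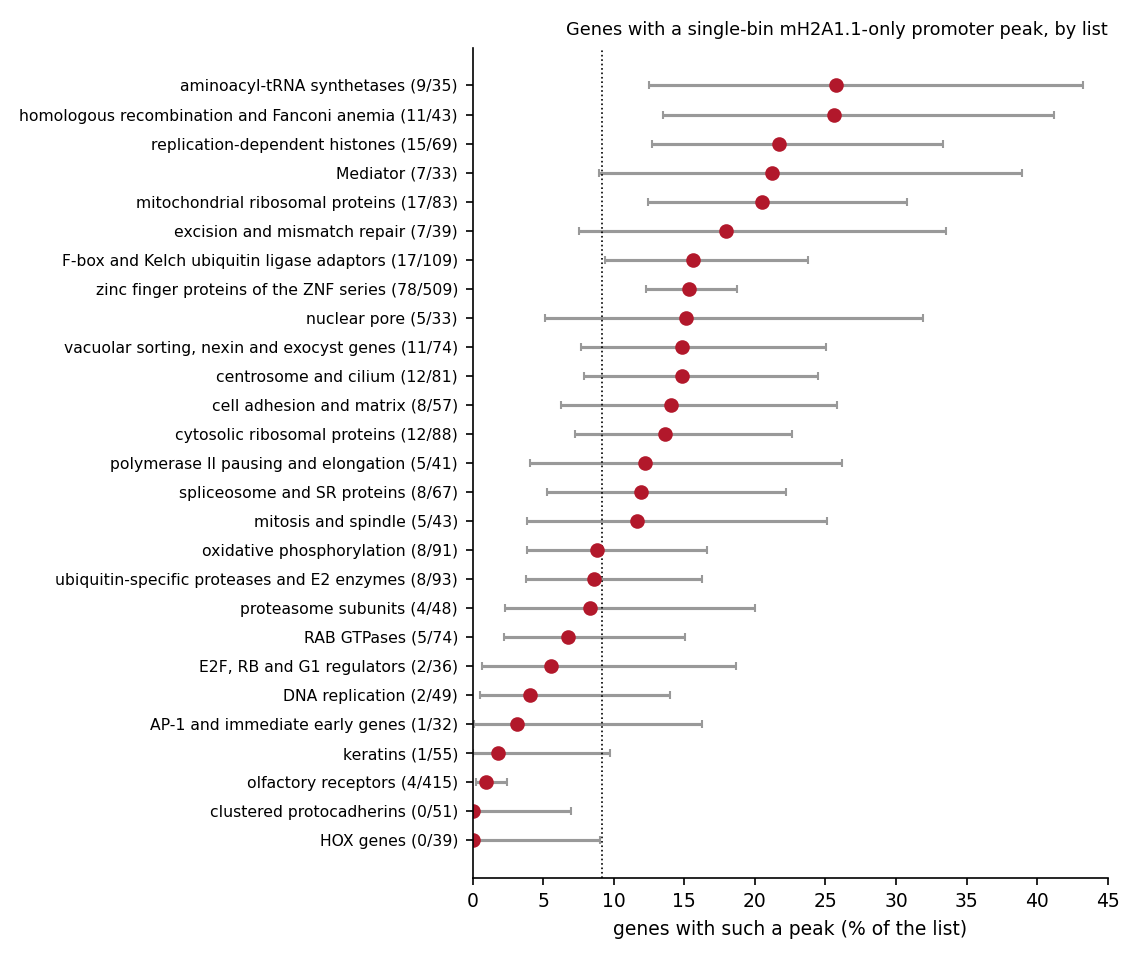
Percentage of genes, in each of the lists of at least 30 genes shown, with a single-bin mH2A1.1-only promoter peak (x axis), with 95% Clopper-Pearson intervals and the numbers of genes in parentheses. The dotted line marks the 9.16% of all protein-coding genes, below which lie the intervals of olfactory receptors (0.964%), HOX genes (0.00%) and clustered protocadherins (0.00%).

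Between WT and mH2A1.1 KD, no gene of the set passed the main test. A call asked for a fold change beyond 1.5 together with a Benjamini-Hochberg adjusted p below 0.1. In edgeR, 0 of the 1371 tested genes of the set met it, as did 0 of all 10963 tested (0.0%), and no adjusted p was below 0.176. Taking instead p before adjustment below 0.05, with the fold kept, 184 genes of the set were lower (13.4%, against 9.37% of all tested) and 66 were higher in KD (4.81%, against 9.45%). DESeq2, the tool of the study, called 82 lower (7.71% of the 1063 with an adjusted p, against 5.86% of all) and 32 higher (3.01% against 5.59%). Genes without a promoter peak had similar DESeq2 shares, 8.05% lower and 2.82% higher. Before adjustment, edgeR gave 12.8% and 5.48% for them. The median log2 fold change of the set was -0.12 (quartiles -0.44 and 0.19), against 0.01 over all protein-coding genes tested, -0.15 at genes without a peak, 0.13 at wider mH2A1.1-only peaks and 0.30 at wider shared peaks. With KD replicate 2 left out, which leaves 1 KD library assumed to vary like the WT libraries, edgeR called 104 lower and 21 higher in the set and 8.05% of all genes tested, and the median of the set was -0.06. With KD replicate 1 left out it called 412 and 163 and 41.8% of all, with a median of -0.23.

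The response went with the base composition of the exons. The tested genes of the set had a median exon G and C content of 43.7% against 47.0% over all protein-coding genes tested, the 82 genes lower by DESeq2 one of 38.7% and the 32 higher ones one of 57.0%. With all genes tested cut into 5 groups by exon G and C content, the median log2 fold change of the set ran from -0.46 in the lowest group over -0.19, 0.04 and 0.23 to 0.55 in the highest, and that of all protein-coding genes tested from -0.47 over -0.22, 0.02 and 0.29 to 0.47. DESeq2 called 57 of the 384 genes of the set lower in the lowest group (14.8% against 14.0% of all) and 0 of 94 in the highest. With smooth trends of exon length and G and C content removed from each library, the median of the set was 0.01, and edgeR called 56 genes lower (4.08%, against 3.22% of all tested) and 26 higher (1.90%, against 2.18%). Of these, 32 lower and 7 higher genes were also called by DESeq2. In each of the 5 groups the median of the set lay near that of all genes, and the part of composition in these differences was not tested.

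**Figure D4:**
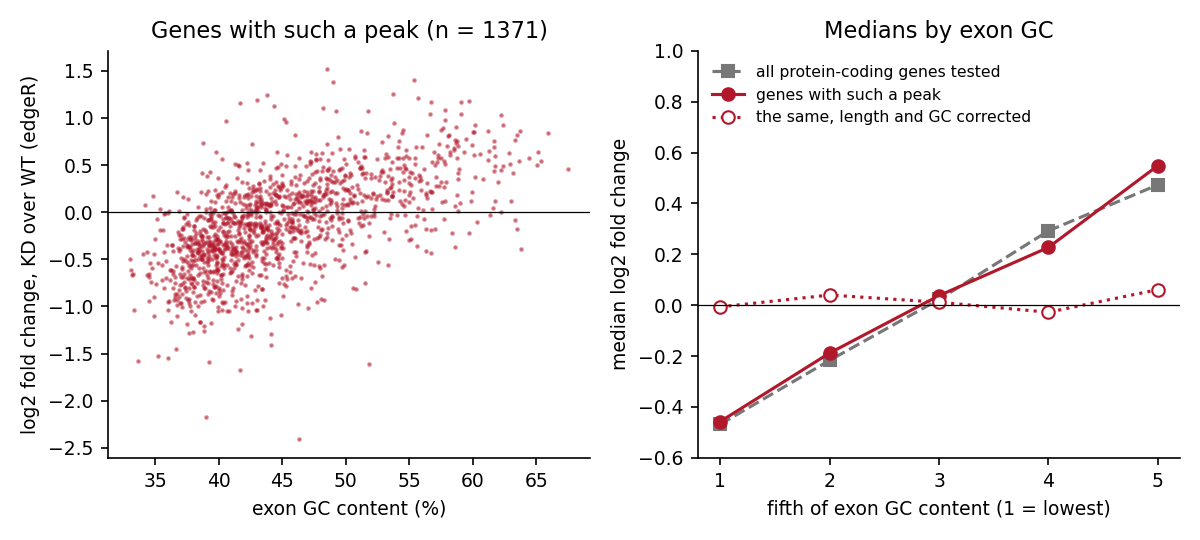
Left, log2 fold change of KD over WT (y axis, edgeR) against exon G and C content (x axis, percent) for the 1371 tested genes with a single-bin mH2A1.1-only promoter peak. Right, median log2 fold change in 5 groups by exon G and C content, for the set (filled circles, from -0.46 to 0.55), all protein-coding genes tested (squares, from -0.47 to 0.47) and the set after correction for length and G and C content (open circles, from -0.03 to 0.06).

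Among a list of genes displayed or named in the study, 6 had the peak, and in all 6 the KD and WT libraries did not overlap. With 2 libraries a group, such separation can also arise from spread alone, and its share over all genes is not given here. The 6 were not compared with the share of all genes that had the peak. The study took its mH2A1.1-regulated genes, among them ARRDC3, GTF2H3, RBL1, FBXL4 and MMP14, from a comparison of these same RNA-seq libraries. Their separation here was therefore largely fixed by that choice and is no independent support. ARRDC3, an arrestin-domain adaptor for the ubiquitination of membrane receptors, had 158 and 137 CPM in WT replicates 1 and 2 and 71.8 and 49.6 CPM in KD replicates 1 and 2. DESeq2 called it lower (log2 fold change -1.28, standard error 0.28, adjusted p = 0.00085). STK38L, a kinase of the NDR family in Hippo signalling, had 49.8 and 40.2 CPM in WT and 20.6 and 10.4 CPM in KD (DESeq2 log2 fold change -1.49, adjusted p = 0.00493). GTF2H3, a subunit of the transcription and repair factor TFIIH, had 57.2 and 56.3 CPM in WT and 33.6 and 19.4 CPM in KD (DESeq2 log2 fold change -1.07, adjusted p = 0.0325). Its 2 WT values lay close together while KD replicate 2 was the lowest.
The bin of GTF2H3 spans chr12:123633001-123636000 and that of RBL1 chr20:37095001-37098000, each with the TSS inside.
RBL1, the pocket protein p107 that restrains E2F factors, had 148 and 146 CPM in WT and 92.6 and 68.5 CPM in KD (DESeq2 log2 fold change -0.87, adjusted p = 0.0317). FBXL4, an F-box protein of mitochondria, had 47.9 and 43.8 CPM in WT and 31.7 and 20.3 CPM in KD and did not pass in DESeq2 (log2 fold change -0.80, adjusted p = 0.107). MMP14, the membrane-anchored metalloproteinase that cuts collagen, was the one with the higher KD values, 547 and 600 CPM in WT and 768 and 1147 CPM in KD and DESeq2 called it higher (log2 fold change 0.72, adjusted p = 0.0635). In edgeR the adjusted p of the 6 lay between 0.176 and 0.194. After the correction for length and G and C content, ARRDC3 (-0.81, adjusted p = 0.0133), STK38L (-0.90, 0.0305) and GTF2H3 (-0.66, 0.0456) passed in edgeR, which had called none of them without it, at smaller log2 fold changes than before, where ARRDC3 had -1.26, STK38L -1.45 and GTF2H3 -1.05. RBL1 had an adjusted p of 0.0453 at a log2 fold change of -0.47, short of the fold threshold, and FBXL4 (-0.25, 0.237) and MMP14 (0.31, 0.126) did not pass. Without KD replicate 2 the log2 fold changes in edgeR were nearer to 0 in all 6, at -1.04 for ARRDC3, -1.13 for STK38L, -0.75 for GTF2H3, -0.66 for RBL1, -0.53 for FBXL4 and 0.43 for MMP14, the last 2 short of the fold threshold.

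Since edgeR called no gene, the genes named next are among those of the set with the smallest DESeq2 adjusted p whose libraries did not overlap, a choice made after their values were seen. On the lower side was FAM3C, a secreted protein linked to epithelial-mesenchymal transition. It had 217 and 194 CPM in WT and 82.6 and 56.2 CPM in KD (DESeq2 log2 fold change -1.56, standard error 0.27, adjusted p = 6.4e-06). The study lists qPCR primers at the FAM3C TSS. Its ChIP-qPCR of polymerase II was done at genes taken as mH2A1.1-activated from these same RNA-seq libraries, so FAM3C is no independent case. ZNF367, a zinc finger protein, had 85.3 and 79.6 CPM in WT and 35.9 and 30.7 CPM in KD (log2 fold change -1.31, adjusted p = 0.000721). Without KD replicate 2 their edgeR log2 fold changes were -1.31 and -1.20. PRKAA2, a catalytic subunit of the energy sensor AMPK, had 52.7 and 41.7 CPM in WT and 18.1 and 13.7 CPM in KD (log2 fold change -1.55, adjusted p = 0.000817). MRPS10, a protein of the small mitochondrial ribosomal subunit, had 209 and 219.9 CPM in WT and 112 and 67.6 CPM in KD (log2 fold change -1.25, adjusted p = 0.00188). All 4 were called as lower in edgeR only with the correction for length and G and C content, among these 2 fits, with log2 fold changes between -1.14 for ZNF367 and -0.95 for FAM3C, nearer to 0 than the -1.29 and -1.55 without it.

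On the higher side, AKR1B1, the aldose reductase, had 139 and 152 CPM in WT and 245 and 316 CPM in KD (DESeq2 log2 fold change 0.93, standard error 0.24, adjusted p = 0.00979), and it passed the corrected edgeR test too (0.65, adjusted p = 0.0212). The size of the next 4 values rested on KD replicate 2. NDUFS5, a subunit of respiratory complex I, had 56.7 and 57.2 CPM in WT, 75.2 CPM in KD replicate 1 and 256 CPM in KD replicate 2 (log2 fold change 1.51, adjusted p = 0.0113), and its edgeR log2 fold change without KD replicate 2 was 0.40. The ribosomal protein gene RPS12 had 117 and 139.9 CPM in WT and 173 and 499 CPM in KD (1.36, adjusted p = 0.013), and 0.44 without KD replicate 2.
RPL37A, another ribosomal protein gene, had 202 and 246 CPM in WT and 295 and 728 CPM in KD (1.17, adjusted p = 0.0239), and 0.41 without it. MYL6, a myosin light chain, had 159 and 154 CPM in WT and 226 and 436 CPM in KD (1.05, adjusted p = 0.0195), and 0.53 without it. In these 4 genes KD replicate 2 stood well above KD replicate 1. Neither NDUFS5 nor RPS12 passed the corrected edgeR test, while RPL37A (1.48, adjusted p = 0.0877) and MYL6 (0.83, adjusted p = 0.0692) did. PPIC, a cyclophilin, PTK2B, a focal adhesion kinase, and COL1A2, a collagen chain, were higher by DESeq2 and by the corrected edgeR test, at 18.9, 11.5 and 21.99 CPM in WT replicate 1, 19.5, 14.1 and 27.7 in WT replicate 2, 33.8, 25.7 and 41.0 in KD replicate 1 and 42.1, 34.5 and 57.2 in KD replicate 2. Among the genes with the highest WT level, VIM had 2315 and 2506 CPM in WT and 2978 and 4726 CPM in KD and was called higher by DESeq2 (adjusted p = 0.0983, log2 fold change 0.66), with 0.31 without KD replicate 2 in edgeR.

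**Figure D5:**
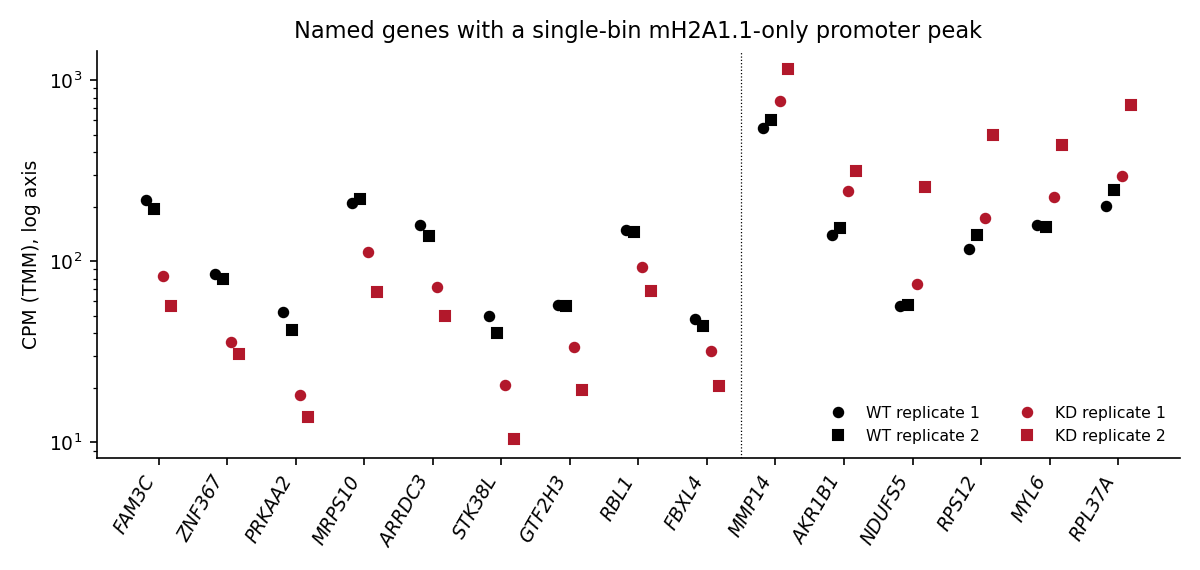
CPM normalized by TMM (y axis, log scale) of 15 named genes with a single-bin mH2A1.1-only promoter peak in each of the 4 RNA-seq libraries, black for WT and red for KD, circles for replicate 1 and squares for replicate 2. The 9 genes left of the dotted line had both KD libraries below both WT libraries, from FAM3C with 82.6 and 56.2 against 217 and 194, and the 6 on the right both above, where KD replicate 2 of NDUFS5 (256) and RPS12 (499) stands apart.

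By function, the DESeq2 calls in each list stand against the 5.86% lower and 5.59% higher of all genes with an adjusted p. Of the 11 homologous recombination genes with the peak, 10 were fitted by edgeR, of which 9 had a log2 fold change below 0, and 3 of the 7 with a DESeq2 adjusted p were lower, BRIP1, DNA2 and RMI1, with a median of -0.56 against -0.55 over the 39 tested genes of the list. None of the 3 passed the corrected edgeR test. Of the 12 centrosome and cilium genes, 10 were below 0 and 1 of the 9 with a DESeq2 adjusted p, CCP110, was lower (median -0.40, list -0.46). Both genes with the peak of the E2F, RB and G1 list, RBL1 and LIN9, were lower, 2 of 2. Of the 11 cytosolic ribosomal protein genes with a DESeq2 adjusted p 3 were higher, RPL37A and RPS12 among them (median 0.34, list 0.52). Of 10 histone genes with a DESeq2 adjusted p 3 were higher, H2AC12, H2BC17 and H2AC15 (median 0.75, list 0.77). For H2AC12 and H2BC17, however, KD replicate 1 lay between the WT libraries. Without KD replicate 2 their edgeR log2 fold changes were 0.03 and 0.13. The corrected edgeR test called 0 histone genes of the set higher. Oxidative phosphorylation genes had 1 in each direction among 7, NDUFB5 lower and NDUFS5 higher, and mitochondrial ribosomal proteins had 1 lower, MRPS10, among 14 (median 0.16). In cell adhesion and matrix MMP14 and ILK, the integrin-linked kinase, were higher, 2 of 6, and none was lower. The corrected edgeR test called neither of them. None was called among the aminoacyl-tRNA synthetases (8 with a DESeq2 adjusted p), spliceosome (8), nuclear pore (5), vacuolar sorting (11), RAB (4) and proteasome (3) genes with the peak, and the 9 synthetases fitted by edgeR had a median of -0.23 against 0.08 over the 31 of the list.

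The genes of the highest WT count in each list show how mixed the set was. ELL2, a subunit of the elongation complex, had 202 and 187 CPM in WT and 132 and 75.6 CPM in KD and was lower by DESeq2 (log2 fold change -0.90, adjusted p = 0.0438). CCNC, cyclin C of the Mediator kinase module, had 59.2 and 52.6 CPM in WT and 37.4 and 18.4 CPM in KD and was lower by DESeq2 (log2 fold change -0.97, adjusted p = 0.0677). Neither ELL2 nor CCNC passed the corrected edgeR test, with log2 fold changes of -0.41 and -0.36. Without KD replicate 2 their edgeR log2 fold changes were -0.56 and -0.58, short of the fold threshold. Their exon G and C content was 38.3% and 36.1%.
BRIP1, a helicase that works with BRCA1, had 126 and 105 CPM in WT and 81.4 and 50.1 CPM in KD and was lower by DESeq2 (log2 fold change -0.81, adjusted p = 0.0754). FANCA, of the Fanconi core complex, had 98.5 and 98.9 CPM in WT and 93.0 and 98.8 CPM in KD (adjusted p = 0.893). FANCA had an exon G and C content of 55.6% and BRIP1 one of 38.1%. MSH6, a mismatch recognition protein, had 236 and 258 CPM in WT and 189 and 163 CPM in KD (adjusted p = 0.166), and LAMC1, a laminin chain, 427 and 425 CPM in WT and 552 and 639 CPM in KD (adjusted p = 0.17), so both had groups that did not overlap and did not pass in DESeq2.

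Within the set, genes were also split by the surroundings of their peak. The genes with no other peak had a median log2 fold change of -0.19 and those with another peak in the gene -0.04, at a median exon G and C content of 42.8% and 46.3%, and after correction the medians were 0.02 and 0.00. Genes at peaks over 9 kb from any total mH2A1 peak had -0.17, and those at peaks that touched one 0.08, with 43.2% and 50.0% exon G and C content and corrected medians of 0.01 and -0.04. Genes of bins with TSSs on both strands had -0.11 and those with TSSs on 1 strand -0.12. In the 145 pairs on opposite strands with both genes tested, both log2 fold changes were below 0 in 57 and both above 0 in 31. These are medians over genes and were not tested.

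Of the set, 105 genes lie on chromosomes 21, 22 and X, where KD replicate 2 gave no measurement. For the 72 of them with 30 or more counts in both WT libraries and KD replicate 1, the log2 ratio of KD replicate 1 to the WT mean had a median of -0.03, from -0.92 to 0.64, with no replicate and so no test. USP16, a deubiquitinase of histone H2A on chromosome 21, had 121 and 109.6 CPM in WT and 88.5 CPM in KD replicate 1, and UBE2G2, a ubiquitin-conjugating enzyme of the same chromosome, had 87.2, 82.5 and 84.3 CPM.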

How the data were processed

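The values used were RNA-seq counts of 4 libraries (2 WT, 2 KD) and 1 ChIP-seq peak list per antibody. The ChIP-seq input and the promoter capture Hi-C samples are not analysed here. The deposited RNA-seq values are raw counts of reads per Ensembl gene, which the authors made with STAR 2.5.1 on GRCh38, a mapping quality minimum of 10, removal of duplicates and htseq-count (annotation not given in the sources used here). Removing duplicates without molecular identifiers also removes molecules of densely covered genes. The deposited peak lists hold positions in base pairs, made by the authors with normR against the input on single libraries and stepped by 3 kb. The score of every deposited peak is 0, so no stricter threshold could be applied.

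Gene starts came from GENCODE release 44. A shared peak has 1 bp or more in common with a total mH2A1 peak. Of 23167 identifiers, 106 had no match. Counts were tested with edgeR 4.0.16 (quasi-likelihood, filterByExpr, TMM, Benjamini-Hochberg over all genes tested) in R 4.3.3 without the genes of chromosomes 21, 22 and X, and with DESeq2 1.42.0 as an alternative. The threshold of a call is in the report. Gene levels are CPM by TMM or, for WT levels, CPM per kb of exon. The correction for exon length and G and C content used lowess trends with a span of 0.3 as offsets. The tests were tested on simulated data. Python 3.11.15 with scipy 1.17.1 gave the 95% intervals.

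Named genes are those of a list displayed or named in the study, the 6 lower and 6 higher edgeR calls (none), the 5 with the highest WT level, 2 per list of functions and the peaks at each threshold. The set, its lists and the rules were chosen with earlier results of these data known. Some named genes and 1 sequence are not reported here.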

Additional observations from a re-analysis of the deposited data

How the results depend on the processing

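The set grew to 2804 peaks and 2916 genes with all transcript starts. With the starts of all genes it grew to 2698 peaks and 3663 genes. Of the 1556 peaks of the unchanged set, 38.5% had starts on both strands when gene starts of all kinds were counted. The share detected was 85.0% at a minimum of 0.5 CPM. The median WT level was 0.681 CPM per kb over the gene span, 7.54 over detected genes, and 5.27 to 5.37 with 1 WT library left out, and with a pseudocount of 0.1 the median log2 level was 2.44. The calls between WT and KD depended most on the processing. The numbers of lower and higher genes of the set, with the share of all tested genes called, were 82, 32 and 11.4% in DESeq2, 93, 30 and 10.1% in DESeq2 with chromosomes 21, 22 and X kept (chosen after seeing the data), 195, 71 and 14.2% with no filter on low counts, and 56, 26 and 5.40% with the length and G and C correction. With 1 library left out they ranged from 0 to 412 lower, from 0 to 163 higher and from 0.0181% to 41.8% called. The edgeR fits with all chromosomes and with DESeq2 size factors each gave 0 calls in the set. An adjusted p under 0.05, a window of 500 bp and genes with no further peak could only give 0, because each narrows a fit that had no calls. The median log2 fold change reversed to 0.0108 with the correction and to 0.00797 with the replicate block and the correction, and was between -0.23 and -0.06 with 1 library left out.

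Replicates share a number in the labels, and nothing says that a number marks a shared culture. The deviations of same-numbered libraries correlated at 0.252 over 2 pairs, which is too few to show pairing. With a replicate block, edgeR called 200 genes of the set lower and 73 higher (20.1% of all tested), and with the block and the correction 68 and 47 (7.97%). The peak lists come from single libraries with no score, and KD replicate 2 had the fewest counts, 2309549, against 5584962 to 9794674 in the other libraries.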
